A study of Mus musculus with 27 samples.

Results

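The lysosomal proton pump, the cathepsins and the membrane proteins of the lysosome were followed in single muscle fibers of mice that lack Smn1 in skeletal muscle. The genes described are the subunits and accessory proteins of the vacuolar ATPase (V-ATPase), the cathepsin proteases, the membrane proteins *Lamp1*, *Lamp2*, *Scarb2* and *Mcoln1*, and the transcription factors *Tfeb* and *Tfe3*. They were taken by gene symbol. They come to 48 genes with 57 probes, of 35527 names with 55681 probes on the array. 46 of them carry their present symbol on the array, while *Tfeb* and *Tfe3* are listed there as Tcfeb and Tcfe3. By role they are 13 genes of the V1 sector, 9 of the V0 sector, 2 accessory subunits, 18 cathepsins, 4 membrane proteins and 2 transcription factors.

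The V-ATPase is a rotary pump in which the cytosolic V1 sector splits ATP and drives protons through the membrane-bound V0 sector into the lysosome. The acid interior activates the cathepsins, which cleave proteins delivered by endocytosis and autophagy, while the heavily glycosylated LAMP proteins line the membrane and Mcoln1 releases calcium through it. Tfeb and Tfe3 are related factors that bind short palindromic elements in the promoters of many lysosomal genes, and muscle depends on this route to clear glycogen and worn organelles, as glycogen storage and LAMP2 deficiency (Danon disease) show.

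Each array holds the amplified RNA of 1 myofiber of the tibialis anterior, labelled with Cy3. The groups were 8 WT myofibers from 2 mice, 12 Smn1deltaSKM myofibers from 3 mice and 7 Smn1deltaSKM+AFS myofibers from 2 mice, all males labelled as 3 months old. Both groups of Smn1deltaSKM mice carry Smn alleles with a floxed exon 7 and a Cre driven by the human α-skeletal actin promoter, so that the deletion is aimed at myofibers and not at the other cells of the muscle. Smn1deltaSKM+AFS mice were also given GFP+ c-kit+ amniotic fluid stem (AFS) cells through the tail vein. The methods have recipients aged 3 months that were killed 1 month later, so the labelled age and the methods differ for them. The paper's results describe the controls as littermates. Its methods name C57BL/6 GFP+ mice, beside the transplanted mice, as a source of single myofibers, and the labels give the controls as WT only.

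Values are the log2 of the processed signal minus the 75th percentile of the array. A probe has a value only where its spot was found, well above background and not marked as uneven. The number of probes with a value per array was 23871 to 34012 in WT (median 25156.0), 23183 to 37595 in Smn1deltaSKM (31433.5) and 25887 to 30498 in Smn1deltaSKM+AFS (27431.0). The WT arrays shared a slide and a scan day with no other group, so that batch and genotype cannot be told apart in any comparison with WT. Fibers 1 to 3 of Smn1deltaSKM mouse 1 and 2 fibers of Smn1deltaSKM+AFS mouse 1 were scanned on day 1, and every other fiber of these groups on day 2. Only slide 3, with myofiber 4 of each, held both of these groups, so slide and treatment can hardly be told apart. One *Smn1* probe was lower in Smn1deltaSKM than in WT by a log2 difference of -1.68 (SE 0.368; limma, adjusted p = 0.0201), with 11 of 12 fibers below the lowest WT fiber, while the other *Smn1* probe differed by 0.19 (adjusted p = 0.715). Neither probe was placed relative to exon 7 here. Of 12 myofiber markers, 11 had values in WT, where *Myh2* had none, and all 12 in both other groups. Their summed level, relative to the 75th percentile on a linear scale, was 2470 to 4666 in WT (median 3825), 1953 to 3306 in Smn1deltaSKM (2454) and 2818 to 3746 in Smn1deltaSKM+AFS (3033), and of 13 tested probes 3 were lower and 1 higher in Smn1deltaSKM than in WT. Of 15 macrophage and leukocyte markers, *C1qb*, *Csf1r*, *Ptprc* and *Itgam* had values on all 27 arrays and *C1qc* on none. *Aif1* had values on 2 of 8 WT, 10 of 12 Smn1deltaSKM and 4 of 7 Smn1deltaSKM+AFS arrays, *Adgre1* on 2, 8 and 3, *Fcer1g* on 0, 6 and 1, and *Tyrobp* on 0, 2 and 1. Other markers of the list went differently, with *C1qa* on 3, 2 and 4 arrays and *Mrc1* on 1, 0 and 0. The summed level of that list was 202.0 to 318.0 in WT, 191.5 to 263.5 in Smn1deltaSKM and 235.1 to 316.1 in Smn1deltaSKM+AFS, of which the *Itgam* probe alone made 82.6% to 91.0%. Of its 9 tested probes, 2 were higher and 0 lower in Smn1deltaSKM than in WT. Among other cells' markers, *Dcn* of fibroblasts had values on 1, 12 and 5 arrays and *Postn* on 1, 0 and 0. *Cd34* of endothelium had values on 2, 12 and 4 arrays, and *Kdr* and *Vwf* on all of them. Summed levels in the same order of groups had medians of 2.501, 11.87 and 16.32 for fibroblasts and 18.3, 15.51 and 17.65 for endothelium. For Schwann cells they were 1.449, 2.603 and 2.501. The fibroblast sums overlapped and reached highest in WT, at 0.9268 to 126.5, with 1.822 to 37.08 in Smn1deltaSKM and 2.152 to 24.48 in Smn1deltaSKM+AFS. Of 3 tested endothelial probes, 1 was lower and 0 higher in Smn1deltaSKM than in WT. The part of these markers in the results was not tested, and in the RNA of a fiber with what adheres to it, the number of other cells and their RNA per cell cannot be told apart.

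Tfeb acts through the letters CACGTG, an E-box, and the promoters of 5 members that hold them are shown. Of these, *Lamp1*, *Mcoln1* and *Ctsa* are among the genes called below, while *Ctsd* and *Atp6v1a* are a protease and the catalytic pump subunit that were not called. RefSeq windows of 300 bases, from 250 bases before to 50 after each annotated start on GRCm38.p6, were searched for CACGTG and for TCACGTGA, a longer element that contains it. Both read the same on either strand. Lamp1 lies at chr8:13158911-13159210 on the plus strand, Mcoln1 at chr8:3500269-3500568 on the plus strand, Ctsa at chr2:164833523-164833822 on the plus strand, Ctsd at chr7:142387778-142388077 on the minus strand and Atp6v1a at chr16:44139210-44139509 on the minus strand. Each sequence is given 5′ to 3′ in the direction of the gene, with every CACGTG in capitals.
Lamp1: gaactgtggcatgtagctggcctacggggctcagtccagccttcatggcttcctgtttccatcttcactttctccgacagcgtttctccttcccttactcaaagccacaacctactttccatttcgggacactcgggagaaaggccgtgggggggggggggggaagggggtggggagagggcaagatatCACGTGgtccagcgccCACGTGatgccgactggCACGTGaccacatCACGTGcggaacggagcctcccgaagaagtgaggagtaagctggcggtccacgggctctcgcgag
Mcoln1: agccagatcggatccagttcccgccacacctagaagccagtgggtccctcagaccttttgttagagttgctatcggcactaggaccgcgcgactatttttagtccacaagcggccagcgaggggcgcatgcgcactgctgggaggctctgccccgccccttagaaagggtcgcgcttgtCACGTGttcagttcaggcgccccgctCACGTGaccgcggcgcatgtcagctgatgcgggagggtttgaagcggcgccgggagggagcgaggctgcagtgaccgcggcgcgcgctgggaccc
Ctsa: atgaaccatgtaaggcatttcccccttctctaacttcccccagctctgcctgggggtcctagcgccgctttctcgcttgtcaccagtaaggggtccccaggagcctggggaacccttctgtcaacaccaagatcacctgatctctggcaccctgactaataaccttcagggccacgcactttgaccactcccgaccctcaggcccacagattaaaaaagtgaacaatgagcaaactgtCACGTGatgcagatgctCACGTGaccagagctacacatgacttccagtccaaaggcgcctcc
Ctsd: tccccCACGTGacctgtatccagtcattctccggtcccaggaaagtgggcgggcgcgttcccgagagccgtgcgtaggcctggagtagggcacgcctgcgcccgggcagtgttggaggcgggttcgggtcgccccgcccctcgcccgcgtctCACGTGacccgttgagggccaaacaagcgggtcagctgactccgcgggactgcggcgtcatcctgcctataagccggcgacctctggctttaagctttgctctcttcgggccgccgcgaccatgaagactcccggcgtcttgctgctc
Atp6v1a: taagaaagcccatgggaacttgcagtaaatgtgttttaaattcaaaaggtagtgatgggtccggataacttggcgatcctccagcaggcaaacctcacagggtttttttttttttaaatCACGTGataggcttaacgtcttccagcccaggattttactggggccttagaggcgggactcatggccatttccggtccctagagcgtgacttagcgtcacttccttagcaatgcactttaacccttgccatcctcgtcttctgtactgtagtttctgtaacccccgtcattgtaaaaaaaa

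The *Lamp1* window held 4 copies of CACGTG, beginning 61, 45, 28 and 15 bases before the start. *Mcoln1*, *Ctsa* and *Ctsd* held 2 copies each and *Atp6v1a* 1 copy. The longer TCACGTGA was in all of these but *Lamp1*. Over all members with an entry (38 genes, 45 windows), CACGTG was in 10 windows (22.2%), each of a different gene, against 7.15% of the 32851 windows of the table. TCACGTGA was in 6 member windows (13.3%) against 0.974%. The other genes with CACGTG were *Atp6v0b*, *Atp6v0d1*, *Atp6v0e*, *Ctsf* and *Ctsl*. The called genes *Atp6v0a1*, *Atp6v1d*, *Atp6v1b1*, *Atp6ap1* and *Tfeb* had entries without CACGTG, and *Atp6v1c1* had no entry. A match describes the letters and does not show binding. These genes did not move alike: *Lamp1*, *Mcoln1* and *Ctsa* fell in Smn1deltaSKM fibers, whereas the brighter *Atp6v1a* probe lay higher, without a call, and *Ctsf* and *Ctsl* differed by 0.22 and 0.14.

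Of the 48 genes, 31 (36 probes) had values on at least 75% of the 27 arrays and were tested. The comparison was made with limma on the means of the 7 mice, in 1 model, and a probe was called at a Benjamini-Hochberg adjusted p under 0.05 over the 22169 probes tested. Such p-values measure the spread between mice. Between Smn1deltaSKM and WT, 9 member probes of 9 genes were called, 8 lower (*Atp6v0a1*, *Atp6v1c1*, *Atp6v1d*, *Atp6ap1*, *Ctsa*, *Lamp1*, *Mcoln1* and *Tfeb*) and 1 higher (*Atp6v1b1*, which passed the filter with values on only 4 of 8 WT arrays). That is 25.0% of the member probes, beside 21.5% of all probes, so the share called was near the background. By direction, 8 of 36 fell where 14.1% of all probes fell, and 1 of 36 rose where 7.33% rose. Values were lower for 25 of 36 members and higher for 11, beside 12319 lower and 9850 higher of all 22169 probes. The median difference of the members was -0.57 beside -0.14 over all probes. Centring the arrays on a median instead of the 75th percentile turned the median over all probes to 0.08 and the share of calls that were lower from 65.8% to 45.0%. For the members the median was then -0.36, and 21 of 36 were lower. Their calls were then 5 lower and 2 higher, beside 1795 lower and 2196 higher over all probes. In a fit of the probes with values on all arrays, 6 of 28 member probes were called, all lower, beside 3144 of 13134 probes. Without WT mouse 1 or WT mouse 2, where the remaining WT mouse is assumed to vary like the other groups, limma called none of the 22161 or 22107 probes tested, although 4635 and 5965 had an unadjusted p under 0.05. Some differences moved little: *Lamp1* gave -1.20 and -1.16, *Mcoln1* -1.75 and -1.98 and *Atp6v0a1* -1.98 and -1.79. Others moved more, with -1.52 and -2.14 for *Atp6v1c1* and -0.91 and -1.42 for *Atp6v1d*. *Ctsl* (0.54 and -0.26) and *Tfe3* (0.42 and -0.26) changed sign. The median member difference was -0.36 without WT mouse 1 and -0.74 without WT mouse 2, beside -0.13 and -0.15 over all probes. Calls also fell to 2 members without Smn1deltaSKM mouse 2 (1881 of all probes), and rose to 20 without Smn1deltaSKM mouse 1 (9711 of all probes).

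**Figure D1:**
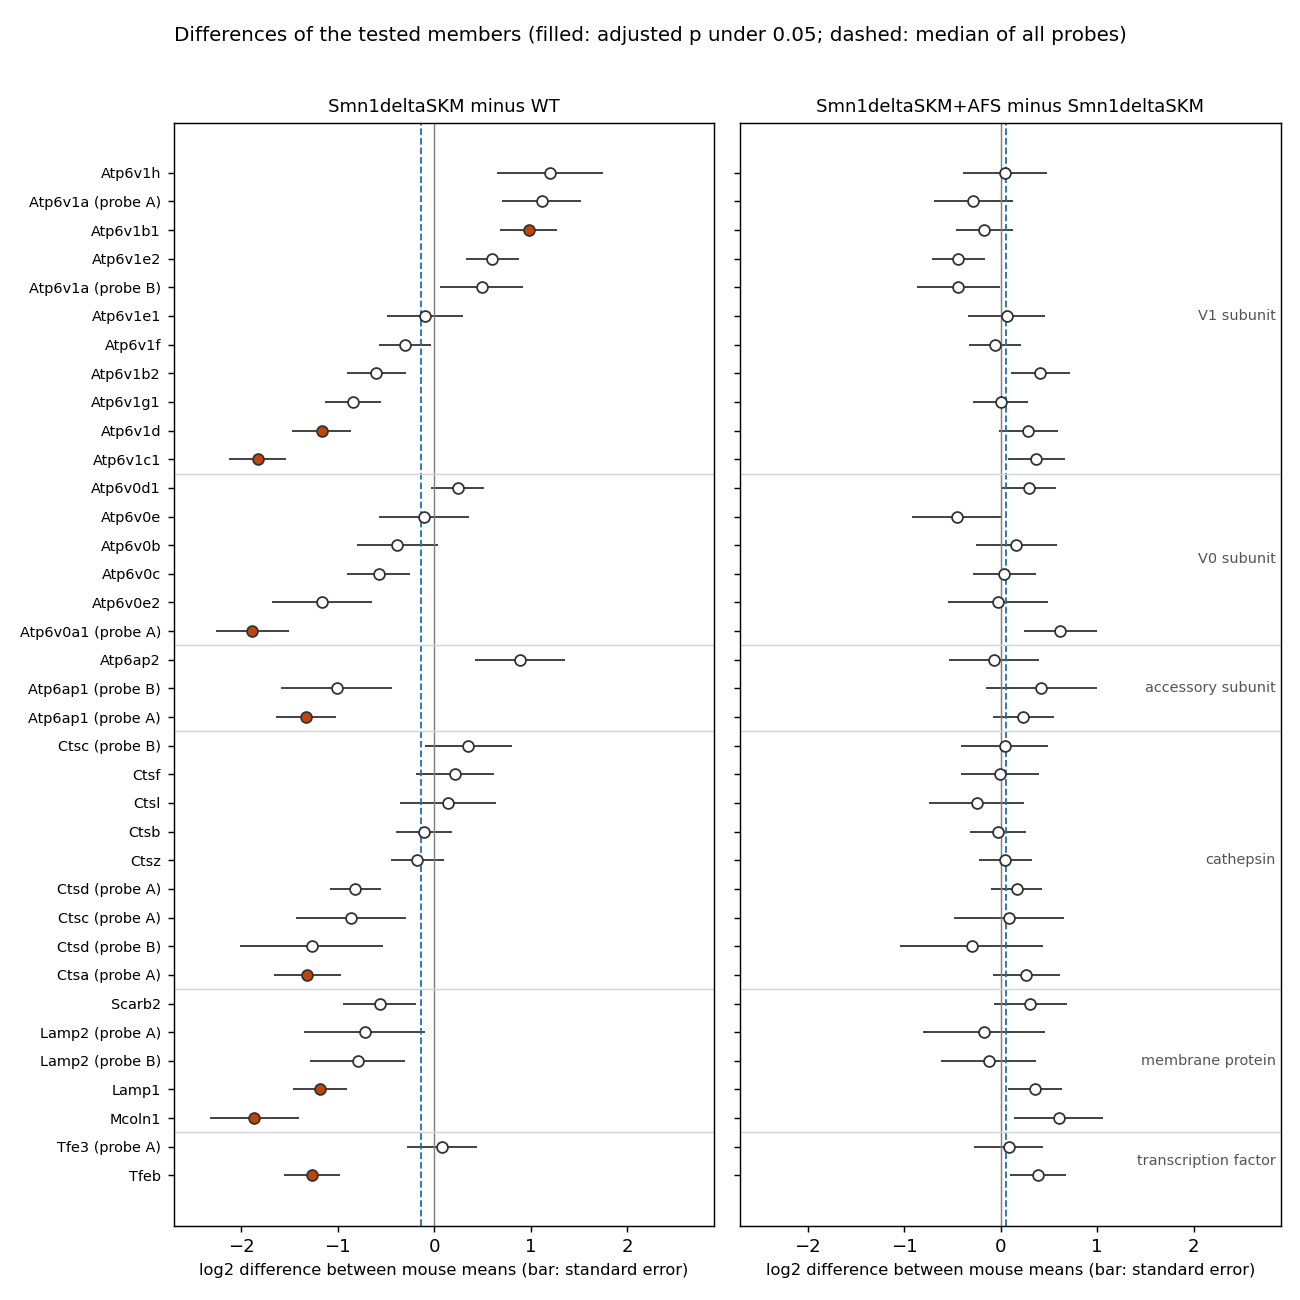
Log2 differences between mouse means (points) with their standard errors (bars) for the 36 tested member probes by role, Smn1deltaSKM minus WT on the left and Smn1deltaSKM+AFS minus Smn1deltaSKM on the right. Filled points were called by limma at an adjusted p under 0.05 and the dashed line is the median of all probes; 9 points are filled on the left and none on the right, where all differences lie between -0.45 and 0.62.

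In the V0 sector, the membrane-bound rotor and its partners, 6 probes were tested and only *Atp6v0a1* was called. It encodes an isoform of the large a subunit, which anchors the stator and forms the proton half-channels. Its probe A, the brighter of a pair, lies at chr11:100924969-100925028 (mm9, as the array gives probe positions). Fibers ranged from 1.87 to 3.75 (median 3.38) in WT, from -0.70 to 2.30 (1.40) in Smn1deltaSKM and from 1.38 to 2.18 (1.91) in Smn1deltaSKM+AFS. Mouse means were 3.01 and 3.21 in WT, 0.52, 1.40 and 1.76 in Smn1deltaSKM, and 1.89 and 1.80 in Smn1deltaSKM+AFS. All 3 Smn1deltaSKM mice lay below both WT mice, and 10 of 12 fibers below the lowest WT fiber. The difference was -1.89 (SE 0.377; limma, adjusted p = 0.0159). Probe B of the gene (chr11:100910359-100910418), with values on 3 of 8 WT, 11 of 12 Smn1deltaSKM and 4 of 7 Smn1deltaSKM+AFS arrays, was not tested and went the other way. Its mouse means were -2.38 and -2.09 in WT and -1.86, -0.07 and -1.33 in Smn1deltaSKM, and 9 of the 11 Smn1deltaSKM fibers lay above the highest of the 3 WT values. *Atp6v0e2*, a small subunit, was 3.44 and 3.17 in the WT mice and 3.32, 1.52 and 1.6 in the Smn1deltaSKM mice. Mouse 1 thus lay within the WT range and the other 2 mice well below it, and the difference of -1.16 (SE 0.518) was not called (adjusted p = 0.134). The proteolipids *Atp6v0c* and *Atp6v0b*, which form the rotor ring, differed by -0.58 (SE 0.327) and -0.38 (SE 0.420), *Atp6v0e* by -0.10 (SE 0.465) and the ring-to-stalk subunit *Atp6v0d1* by 0.24 (SE 0.278), none of them called. *Atp6v0a2*, another a-subunit isoform, had values on 6 of 8 WT, 4 of 12 Smn1deltaSKM and 3 of 7 Smn1deltaSKM+AFS arrays and was not tested. Its mouse means were -0.63 and -0.21 in WT, -2.45 and -2.29 in Smn1deltaSKM mice 1 and 3 (mouse 2 had no value), and -1.30 and -1.65 in Smn1deltaSKM+AFS.

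In the V1 sector, 3 of 11 tested probes were called, 2 lower and 1 higher, and 5 of 11 lay higher. Among those that lay higher, *Atp6v1b1*, *Atp6v1h* and *Atp6v1e2* had values on only 4, 3 and 5 of 8 WT arrays. They passed the filter through the groups in which they were higher, so no split of the sector is read from them. The others were the pair of *Atp6v1a* probes, which had values on all arrays. *Atp6v1c1*, the C subunit that clamps the stator when V1 and V0 join, is at chr15:38621773-38621832. It had values on all 8 WT, 10 of 12 Smn1deltaSKM and 6 of 7 Smn1deltaSKM+AFS arrays, so the mean leaves out fibers in which it was not above background. Mouse means were -0.09 and -0.71 in WT, -2.26, -2.42 and -2.02 in Smn1deltaSKM and -1.97 and -1.75 in Smn1deltaSKM+AFS. WT fibers reached from -2.19 to 0.90 (median -0.21) and Smn1deltaSKM fibers from -2.80 to -1.45 (-2.32), so single fibers overlapped although the mice did not. The difference of -1.83 (SE 0.297; limma, adjusted p = 0.0102) had the lowest adjusted p of the members. *Atp6v1d*, a subunit of the central rotor (chr12:79943993-79944052), had mouse means of 4.35 and 3.84 in WT, 2.58, 3.20 and 3.00 in Smn1deltaSKM and 3.24 and 3.19 in Smn1deltaSKM+AFS. All Smn1deltaSKM mice lay below WT, and 10 of 12 fibers below the lowest WT fiber (WT 3.40 to 4.59, median 4.05; Smn1deltaSKM 1.87 to 3.54, median 2.94). The difference was -1.17 (SE 0.303; adjusted p = 0.0317).

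*Atp6v1b1*, an isoform of the nucleotide-binding B subunit best known from kidney and inner ear, was the only member called higher. Its probe spans an intron (chr6:83706880-83707858) and was dim. It had values on 4 of 8 WT arrays, from -2.43 to -2.09, and on all 12 Smn1deltaSKM arrays, from -2.0 to -0.18 (median -1.32). Mouse means were -2.20 and -2.26 in WT, -1.40, -1.22 and -1.15 in Smn1deltaSKM and -1.06 and -1.78 in Smn1deltaSKM+AFS. Every Smn1deltaSKM fiber lay above the 4 WT fibers with a value, and the difference was 0.98 (SE 0.298; adjusted p = 0.049). The probe passed the filter through the groups in which it was higher, and its WT mean leaves out the 4 fibers below background. No rise is therefore read from the call. With the measured signal kept on every array, signal not above background included, the difference was 1.83. This call was kept under 5 of 17 other settings. The widely expressed isoform *Atp6v1b2* differed by -0.60 (SE 0.306; adjusted p = 0.18). *Atp6v1a*, the catalytic subunit, had a pair of tested probes that were higher in Smn1deltaSKM by 1.11 (SE 0.409; adjusted p = 0.0822) and 0.49 (SE 0.428; adjusted p = 0.424). For the brighter one, WT mice stood at 1.78 and 1.30 and Smn1deltaSKM mice at 3.26, 2.79 and 1.91, so the mice did not overlap. *Atp6v1h*, a regulatory subunit, had values on 3 of 8 WT arrays, all of mouse 1 (mean -2.18), and on every other array, with means of -0.54, -0.65 and -1.76 in Smn1deltaSKM and -0.63 and -1.23 in Smn1deltaSKM+AFS. It thus passed the filter through the groups in which it was higher, and with 1 WT mouse its spread in the fit came from the other groups, so no test is given. The peripheral stalk subunits *Atp6v1g1* (-0.84, SE 0.286), *Atp6v1e1* (-0.09, SE 0.394) and *Atp6v1e2* (0.60, SE 0.275) and the rotor subunit *Atp6v1f* (-0.31, SE 0.27) were not called. *Atp6v1e2* was dim, with values on 5 of 8 WT arrays (mouse means -1.99 and -2.02) and on every other array, so its WT mean leaves out fibers below background.

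*Atp6ap1*, an accessory subunit needed to assemble V0, was measured by a pair of tested probes of the same gene. For probe A (chrX:71549319-71549378) the WT mice stood at 2.99 and 3.04, the Smn1deltaSKM mice at 2.14, 1.39 and 1.54, and the Smn1deltaSKM+AFS mice at 2.12 and 1.73. Fibers ranged from 1.62 to 3.66 (median 3.08) in WT and from 1.01 to 2.70 (1.55) in Smn1deltaSKM, where 9 of 12 lay below the lowest WT fiber. The difference was -1.33 (SE 0.313; limma, adjusted p = 0.0242). Probe B (chrX:71548822-71548881) gave 2.36 and 2.31 in WT but 2.57, 0.60 and 0.79 in Smn1deltaSKM. Smn1deltaSKM mouse 1 lay above both WT mice with this probe, and the difference of -1.01 (SE 0.574) was not called (adjusted p = 0.225). The other accessory subunit, *Atp6ap2*, also known as the prorenin receptor, went the other way: mouse means were 0.84 and -0.06 in WT, 1.30, 1.94 and 0.59 in Smn1deltaSKM and 1.57 and 0.84 in Smn1deltaSKM+AFS. The WT and Smn1deltaSKM mice overlapped, and the difference of 0.89 (SE 0.465) was not called (adjusted p = 0.192).

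Among the membrane proteins all 5 tested probes were lower in Smn1deltaSKM, with differences from -1.86 to -0.56, and 2 were called. *Mcoln1*, the calcium channel of the lysosome (chr8:3515110-3515169 on mm9; its promoter with 2 copies of CACGTG is given above), ranged over fibers from 2.02 to 3.25 (median 2.62) in WT, from -0.65 to 1.52 (1.08) in Smn1deltaSKM and from 0.56 to 1.86 (1.36) in Smn1deltaSKM+AFS. Mouse means were 2.72 and 2.49, then -0.16, 1.06 and 1.32, then 1.00 and 1.69. All 12 Smn1deltaSKM fibers lay below every WT fiber, and the difference was -1.86 (SE 0.458; limma, adjusted p = 0.0267). *Lamp1*, the most abundant lysosomal membrane glycoprotein (chr8:13175277-13175336), ranged from 5.27 to 6.69 (median 6.27) in WT, from 3.78 to 5.44 (5.22) in Smn1deltaSKM and from 4.86 to 5.94 (5.34) in Smn1deltaSKM+AFS. Its mouse means were 6.21 and 6.25 in WT, 4.71, 5.17 and 5.27 in Smn1deltaSKM and 5.43 and 5.38 in Smn1deltaSKM+AFS. The WT mice lay above all other mice, and 8 of 12 Smn1deltaSKM fibers lay below the lowest WT fiber. The difference between Smn1deltaSKM and WT was -1.18 (SE 0.278; adjusted p = 0.0241).

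*Lamp2*, which also serves in autophagosome fusion and chaperone-mediated autophagy, was read by 1 probe for transcript variant 1 (chrX:35777505-35777564) and another for variant 2 (chrX:35772774-35772833). The first gave 3.07 and 2.62 in the WT mice and 3.49, 1.40 and 1.48 in the Smn1deltaSKM mice, the second 2.14 and 1.28 against 1.71, 0.97 and 0.07. Mouse 1 lay above both WT mice with the first probe and between them with the second, while mice 2 and 3 lay below both with either probe. The differences were -0.72 (SE 0.630; adjusted p = 0.424) and -0.80 (SE 0.492; adjusted p = 0.262). *Scarb2*, the receptor that carries β-glucocerebrosidase to the lysosome, was 0.80 and 0.45 in WT, 0.64, -0.57 and 0.12 in Smn1deltaSKM and 0.18 and 0.56 in Smn1deltaSKM+AFS, and its difference of -0.56 (SE 0.380) was not called (adjusted p = 0.301).

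**Figure D2:**
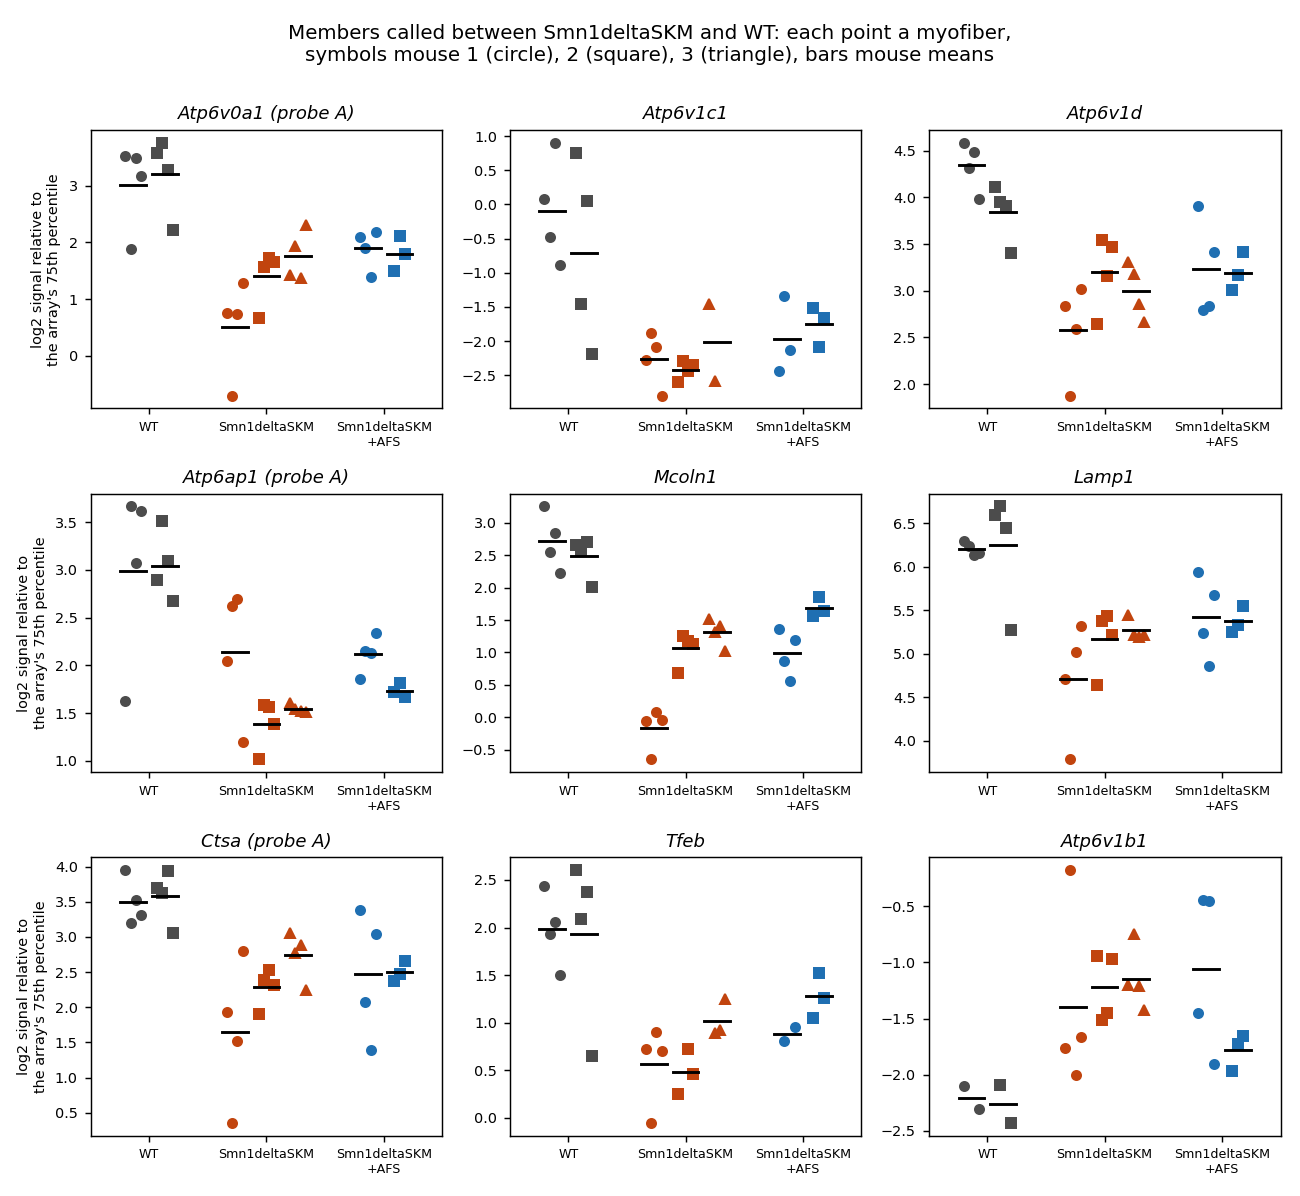
Log2 signal relative to the array's 75th percentile for the 9 called member probes, 1 point for each myofiber with a value, symbols by mouse (circle 1, square 2, triangle 3) and bars for mouse means, in WT (8 arrays), Smn1deltaSKM (12) and Smn1deltaSKM+AFS (7). For *Mcoln1* and *Ctsa* every Smn1deltaSKM fiber lies below every WT fiber, and *Atp6v1b1*, with only 4 WT values, is the one panel in which Smn1deltaSKM lies above WT.

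Of the cathepsins, 1 was called and most of those tested differed by little. Of 18 genes, 7 had enough values to be tested (9 probes), and their median difference was -0.18. *Ctsa*, a serine carboxypeptidase that also protects β-galactosidase and neuraminidase, ranged from 3.06 to 3.95 (median 3.57) in WT fibers, from 0.35 to 3.06 (2.35) in Smn1deltaSKM and from 1.40 to 3.39 (2.48) in Smn1deltaSKM+AFS (probe A, chr2:164665023-164665082 on mm9). Mouse means were 3.50 and 3.58 in WT, 1.65, 2.29 and 2.74 in Smn1deltaSKM and 2.48 and 2.5 in Smn1deltaSKM+AFS. All 12 Smn1deltaSKM fibers lay below the lowest WT fiber, though the highest of them only just, and the difference was -1.31 (SE 0.345; limma, adjusted p = 0.0325). *Mcoln1* and *Ctsa* were the members whose Smn1deltaSKM fibers all lay below WT, 2 of 36, where 7.16% of all probes did so.

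*Ctsd*, the main aspartic protease, was lower with both probes without a call. Probe A had mouse means of 5.72 and 5.69 in WT, 5.11, 4.64 and 4.91 in Smn1deltaSKM and 5.07 and 5.04 in Smn1deltaSKM+AFS, a difference of -0.82 (SE 0.266; adjusted p = 0.0588). The mice of the first 2 groups did not overlap. Probe B spans an intron and gave 4.93 and 4.53 in WT but 5.0, 2.41 and 2.97 in Smn1deltaSKM, with Smn1deltaSKM mouse 1 above both WT mice, and its difference was -1.27 (SE 0.741; adjusted p = 0.237). *Ctsb*, an abundant cysteine protease, had mouse means of 4.93 and 4.79 in WT, 5.14, 4.63 and 4.49 in Smn1deltaSKM and 4.68 and 4.76 in Smn1deltaSKM+AFS. *Ctsl*, a cysteine protease known to rise in wasting muscle, had 2.62 and 1.82 in WT, 3.04, 2.56 and 1.48 in Smn1deltaSKM and 2.46 and 1.75 in Smn1deltaSKM+AFS. The groups overlapped for both: *Ctsb* differed by -0.11 (SE 0.290; adjusted p = 0.801), a sign that turned under other scalings, and *Ctsl* by 0.14 (SE 0.493; adjusted p = 0.85). *Ctsz* differed by -0.18 (SE 0.275) and *Ctsf* by 0.22 (SE 0.404). For *Ctsc*, which activates granule proteases, the pair of probes differed in sign, -0.86 (SE 0.572) and 0.35 (SE 0.453), neither of them called.

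Of the transcription factors, *Tfeb* fell and *Tfe3* was not called. *Tfeb* (chr17:47929089-47929148) had values on 8 of 8 WT, 10 of 12 Smn1deltaSKM and 5 of 7 Smn1deltaSKM+AFS arrays. Fibers ranged from 0.65 to 2.60 (median 2.07) in WT, from -0.06 to 1.24 (0.72) in Smn1deltaSKM and from 0.80 to 1.53 (1.05) in Smn1deltaSKM+AFS. Mouse means were 1.98 and 1.93, then 0.57, 0.48 and 1.02, then 0.88 and 1.28. The mice of the first 2 groups did not overlap, while single fibers did, and the difference was -1.27 (SE 0.290; limma, adjusted p = 0.0224). The brighter *Tfe3* probe (chrX:7352069-7352128) had mouse means of 1.58 and 0.90 in WT, 1.88, 1.09 and 0.98 in Smn1deltaSKM and 1.42 and 1.38 in Smn1deltaSKM+AFS. These overlapped, and the difference was 0.08 (SE 0.360; adjusted p = 0.885). Both factors are controlled largely by where they are in the cell, which an array does not measure.

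Smn1deltaSKM mouse 1 stood apart from mice 2 and 3 in these genes. Relative to WT and to the median of all probes, the median member was at 0.25 in mouse 1, -0.56 in mouse 2 and -0.57 in mouse 3, and it was at -0.27 and -0.46 in the Smn1deltaSKM+AFS mice. In the 3 fibers of mouse 1 scanned on day 1 the members had a median of 0.22 above WT (all probes -0.14), and in its fiber scanned on day 2 a median of -0.21 (all probes -0.10). The 2 fibers of Smn1deltaSKM+AFS mouse 1 from day 1 had a median of -0.61 and the 2 from day 2 of -0.27. The members of mouse 1 did not move as a block. In its day 1 fibers *Atp6v0a1* (0.26), *Mcoln1* (-0.20), *Ctsa* (1.27) and *Lamp1* (4.50) were at the low end of the group, while *Lamp2* variant 1 (3.80), *Ctsd* probe B (5.44), *Atp6ap1* probe B (3.14) and *Atp6v0e2* (3.51) were above the WT means. In its day 2 fiber the latter 4 were 2.56, 3.70, 0.88 and 2.75, all below the WT means. In Smn1deltaSKM+AFS mouse 1 the same 3 probes of *Lamp2*, *Ctsd* and *Atp6ap1* were also higher on day 1 (2.88, 4.46 and 2.60) than on day 2 (2.02, 3.37 and 1.73), while *Atp6v0e2* was 2.14 and 1.96. Without mouse 1, all 9 members called were called again and 11 more were, 20 of 36 or 55.6%, beside 43.8% of all probes. The additional calls were 10 lower probes (*Atp6v0b*, *Atp6v0c*, *Atp6v0e2*, *Atp6v1g1*, *Atp6ap1* probe B, *Ctsc* probe A, and both probes of *Ctsd* and of *Lamp2*) and 1 higher (*Atp6v1e2*, dim and with values on only 5 of 8 WT arrays). Mice 2 and 3 were on slide 4 and mouse 1 on slides 1 and 3, so this mouse and its slides cannot be told apart. The part of the scan day in the values of mouse 1 was not tested.

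**Figure D3:**
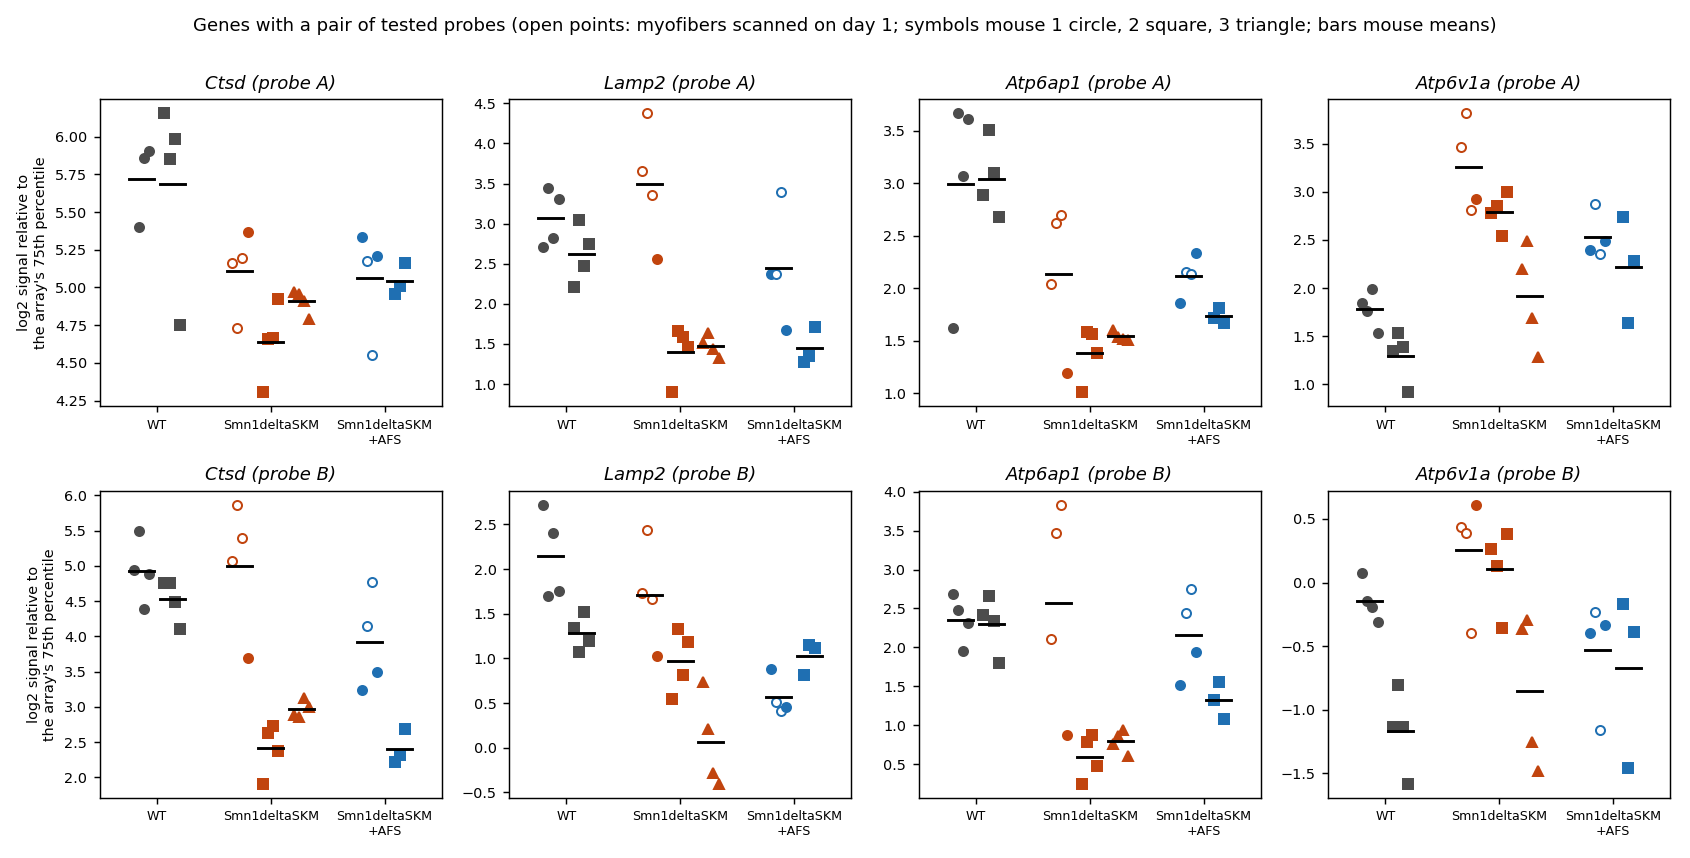
Log2 signal relative to the array's 75th percentile for 4 of the genes with a pair of tested probes (*Ctsc* is not drawn), 1 point for each myofiber, open where the array was scanned on day 1, symbols by mouse and bars for mouse means. The open Smn1deltaSKM points, all from mouse 1, lie within or above the WT range for *Atp6ap1* probe B, *Ctsd* probe B and *Lamp2* variant 1 (probe A), while the other Smn1deltaSKM fibers lie mostly below.

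No lysosomal gene differed detectably between Smn1deltaSKM+AFS and Smn1deltaSKM fibers. The limma fit called 0 members, and 0 of all 22169 probes (0.0%), and the count at an unadjusted p under 0.05 was 0 of 36 members and 712 of all probes. With fibers taken as independent replicates, 26 probes were called, none of them a member. The differences ran from -0.45 (*Atp6v0e*) to 0.62 (*Atp6v0a1*), 14 lower and 22 higher, where 9369 of all probes were lower and 12800 higher. Their median was 0.05 beside 0.06 over all probes. The 8 members that fell in Smn1deltaSKM were all higher in Smn1deltaSKM+AFS than in Smn1deltaSKM, by 0.24 (SE 0.313) for *Atp6ap1*, 0.27 (SE 0.345) for *Ctsa*, 0.29 (SE 0.303) for *Atp6v1d*, 0.36 (SE 0.278) for *Lamp1*, 0.37 (SE 0.297) for *Atp6v1c1*, 0.39 (SE 0.290) for *Tfeb*, 0.60 (SE 0.458) for *Mcoln1* and 0.62 (SE 0.377) for *Atp6v0a1*. None passed the test, each adjusted p was 1.0, and the same Smn1deltaSKM mice enter both comparisons, so a low value there lowers one difference and raises the other. Within scan day 2, which held 3 mice of the one group and 2 of the other, the median of members relative to all probes was 0.11, and within day 1, with 1 mouse on each side, it was -0.74. Only slide 3 held fibers of both groups, so slide and treatment can hardly be told apart in this comparison.

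Set against WT, the Smn1deltaSKM+AFS mice had 1 member called, *Atp6v1c1* at -1.46 (SE 0.326; limma, adjusted p = 0.0396). That is 2.78% of 36, where 7.33% of all probes were called, and 10 members had an unadjusted p under 0.05. The differences of the members from WT had a median of -0.45, beside -0.06 over all probes, and 26 of 36 were lower, beside 11763 of 22169 probes. *Mcoln1* differed by -1.26 (SE 0.502; adjusted p = 0.14), *Atp6v0a1* by -1.26 (SE 0.413; adjusted p = 0.091), *Lamp1* by -0.83 (SE 0.304; adjusted p = 0.12) and *Tfeb* by -0.88 (SE 0.318; adjusted p = 0.115), all without a call. This comparison shares the WT mice with the first one and the transplanted mice with the second.

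The fibers of 1 mouse varied among themselves about as much for these genes as for others. The SD between fibers within mice had a median of 0.45 over the 36 members and 0.45 over all probes tested, from 0.27 for *Atp6v0d1* to 0.74 for *Atp6v1c1*.

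The 17 genes (21 probes, counting second probes of tested genes) that could not be tested hold much of the cathepsin family. No array gave a value for *Atp6v0a4*, *Atp6v1c2* and *Atp6v1g3*, isoforms known from kidney and other epithelia, nor for *Ctse*, *Ctsj*, *Ctsq* and *Ctsr*, of which the last 3 are placental. *Ctss*, the cathepsin of antigen-presenting cells, had a value on 0 of 8 WT, 1 of 12 Smn1deltaSKM and 1 of 7 Smn1deltaSKM+AFS arrays. *Ctsk*, of osteoclasts and fibroblasts, had values on 0, 3 and 1, *Ctsh* on 0, 1 and 0, and *Ctsm* on 1, 0 and 0. *Ctso* stood out in this count, with 1 of 8 WT, 10 of 12 Smn1deltaSKM and 5 of 7 Smn1deltaSKM+AFS arrays. Smn1deltaSKM arrays also had the most probes with values overall (median 31433.5 against 25156.0 in WT), and the part of that in the count was not tested. Second probes of tested genes were also sparse, with values on 1, 4 and 2 arrays for *Ctsa* and on 6, 8 and 5 for *Tfe3*. The remaining genes were *Ctsw* (5, 7 and 6 arrays), *Ctsg* (2, 4 and 1), *Atp6v1g2* (4, 8 and 4) and the osteoclast subunit *Atp6v0d2* (0, 1 and 0).

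**Figure D4:**
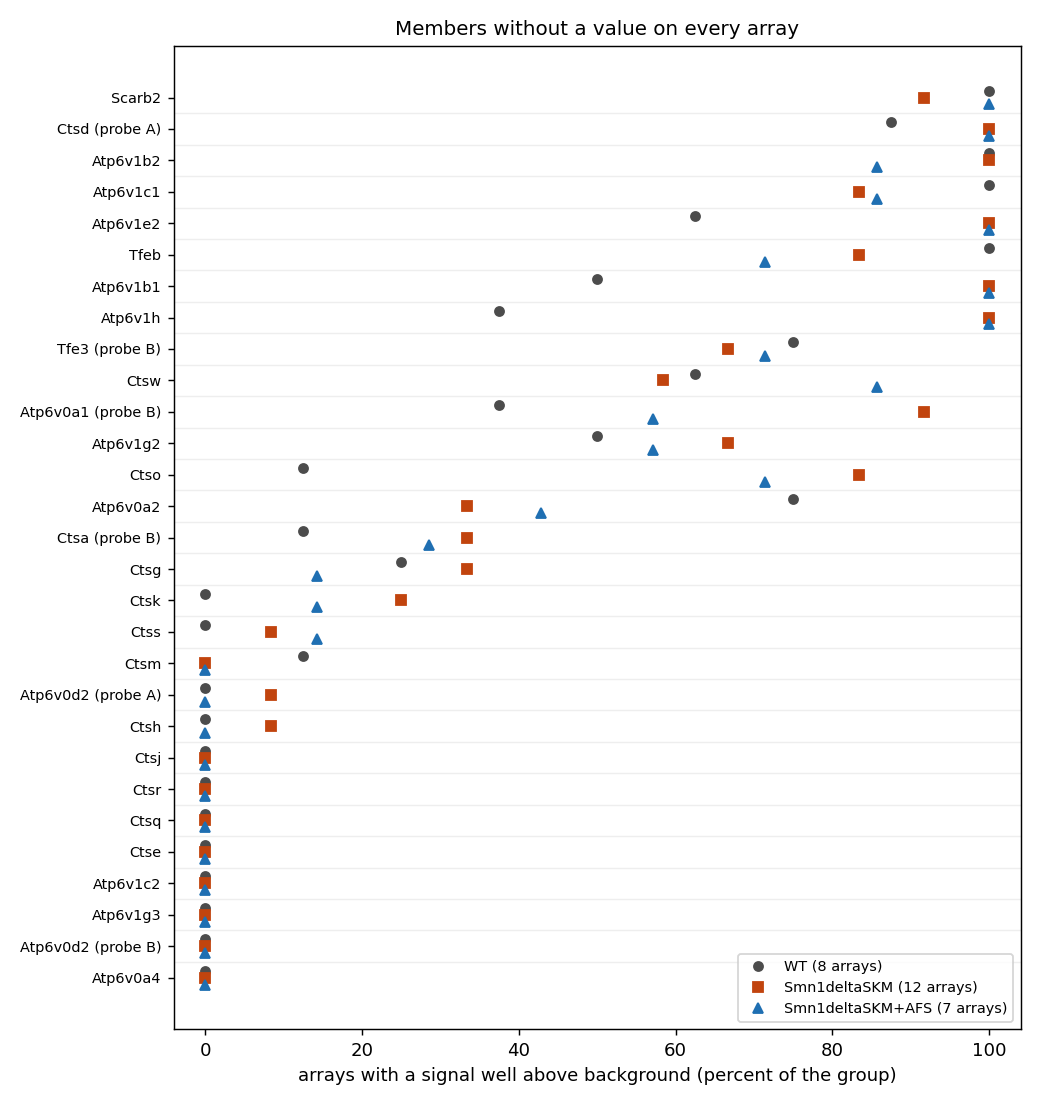
Share of arrays with a value (spot found, well above background and not marked as uneven), in percent of each group, for member probes that lacked a value on at least 1 array. *Ctso*, *Atp6v1b1* and *Atp6v1h* have values on most Smn1deltaSKM arrays and on no more than 4 of 8 WT arrays, whereas *Atp6v0a2* has values on 6 of 8 WT arrays and on 4 of 12 and 3 of 7 of the others.

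Genes that work with these were read from lists drawn up for this comparison. Of 39 genes for lysosomal hydrolases and related proteins, 29 were tested (34 probes), of which 7 probes fell and 1 rose, with a median of -0.53. *Gaa*, the acid α-glucosidase that is deficient in Pompe disease, fell with both probes, with differences of -2.59 (SE 0.445; limma, adjusted p = 0.0117) and -1.36 (SE 0.340; adjusted p = 0.0279). For the first, mouse means were 4.45 and 4.42 in WT, 0.88, 2.30 and 2.35 in Smn1deltaSKM and 2.20 and 2.38 in Smn1deltaSKM+AFS. *Gm2a*, the activator of ganglioside breakdown, fell by 1.94 (SE 0.288; adjusted p = 0.00874). Of 13 genes that tag enzymes with mannose 6-phosphate or carry them to the lysosome, 12 were tested (16 probes), and 6 probes of 4 genes fell while none rose. These were *Gnptab* and *Gnptg*, subunits of the enzyme that makes the tag, the receptor *Igf2r* that binds it, and the sorting receptor *Sort1*, with differences of -1.81 (SE 0.308), -1.40 (SE 0.373), -1.09 (SE 0.323) and, with its first probe, -1.56 (SE 0.322). The shares called, 23.5% and 37.5%, stand beside the 21.5% of all probes.

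Of 6 tested V-ATPase assembly factors (8 probes), 2 were called, 25.0% of the probes beside 21.5% of all probes. *Vma21*, a chaperone of V0 assembly, fell by 1.84 (SE 0.315; limma, adjusted p = 0.0115), and *Rogdi*, of the complex that joins V1 to V0, fell by 1.53 (SE 0.309; adjusted p = 0.0162). Of 14 tested genes that dock mTORC1 on the lysosome (19 probes), 3 were called, 15.8% of the probes and below the 21.5% of all probes. *Rraga* fell by 1.69 (SE 0.254; adjusted p = 0.00888) and *Flcn*, folliculin, fell by 2.12 (SE 0.517; adjusted p = 0.0263), while *Fnip2*, a partner of folliculin, rose by 1.66 (SE 0.267; adjusted p = 0.0099). The mouse means of *Rraga* were 4.12 and 4.34 in WT, 2.66, 2.44 and 2.52 in Smn1deltaSKM and 2.47 and 2.53 in Smn1deltaSKM+AFS, so the first group lay apart from the others. Of 21 tested genes for other lysosomal membrane proteins (24 probes), *Mfsd8* fell by 1.57 (SE 0.347; adjusted p = 0.0204) and the amino acid exporter *Slc36a1* rose by 1.41 (SE 0.348; adjusted p = 0.0267). These are 8.33% of the probes, below the 21.5% of all probes. Between Smn1deltaSKM+AFS and Smn1deltaSKM, no probe of any of these lists was called by limma.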

How the data were processed

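RNA from single myofibers was hybridized in 1 colour to Agilent mouse arrays, and the deposited scanner files (Agilent Feature Extraction 10.7.3.1 per the file headers) give processed signal intensity, which is background-subtracted and not scaled between arrays. The value table of the authors, also deposited as linear intensity, was made equal in distribution between arrays and served as an alternative. Here the processed signal was taken to log2 after dropping spots that were not found, not well above background or marked as uneven, minus the 75th percentile of its array, with the mean taken over replicate spots. A probe was kept if 75% of the 27 arrays had a value for it. Fibers were averaged within mice, and limma 3.58.1 (R 4.3.3) was run on 7 mice, with calls at an adjusted p under 0.05 over 22169 probes, after the script had been tested on simulated data. The number of arrays limits the precision, and levels of different probes were not compared. Members given in full were those called in any comparison and the brightest probes of *Lamp1*, *Lamp2*, *Scarb2*, *Mcoln1*, *Tfeb*, *Tfe3*, *Atp6ap1*, *Atp6ap2*, *Ctsb*, *Ctsd*, *Ctsl*, *Atp6v0a1*, *Atp6v0a2* and *Atp6v1c1*; some members without a call were named besides to account for every gene. The members and lists were chosen with earlier results of these data known. Other scalings, filters, replicate units, blocks and left-out mice were tried. Probe positions are those of the array (mm9) and promoters those of RefSeq (GRCm38.p6), and no position was converted between them.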

Additional observations from a re-analysis of the deposited data

Results flagged for a closer look

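In WT, *Lamp1* in myofiber 8 had a log2 signal of 5.27 while the nearest of the other 7 fibers stood at 6.14, a gap of 0.607 of the whole range of the group. Of 33 groups of WT or Smn1deltaSKM+AFS myofibers examined for the members given in full, this was the only one with a value so far from the others, and chance gives such a value in about 1 group in 20. That array also had the most probes with values in WT (34012). The fiber was kept in all results, and with it 8 of 12 Smn1deltaSKM fibers lay below the lowest WT fiber for *Lamp1*. All 12 lay below the other 7 WT fibers, but that leaves out a fiber picked by its value. How many of all probes would separate in that way was not counted.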

How the results depend on the processing

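The comparison of Smn1deltaSKM with WT rests on 2 WT mice from 1 slide, and the calls depended on the replicate unit and on single mice. The count of 9 members called became 5 with quantile normalization, 5 with normexp and quantile normalization, 3 with the slide as a random block and 23 with myofibers as independent replicates. Of all 22169 probes, 4757 were called in the main fit and 3566, 3429, 2319 and 11996 in these settings. With either normalization and with the slide as a block, the share of members called was thus below that of all probes. Leaving out 1 Smn1deltaSKM mouse at a time gave 2 to 20 members, beside 1881 to 9711 of all probes. In 18 other settings (17 for *Atp6v1c1* and *Tfeb*), the call was kept in 16 for *Atp6v0a1*, 14 for *Mcoln1* and *Atp6v1c1*, 13 for *Tfeb*, 12 for *Atp6ap1*, 10 for *Lamp1* and 7 for *Atp6v1d* and *Ctsa*, always with a negative difference. The median member stayed below the median of all probes in each setting, from -0.10 to -0.62. Against WT, the 1 call in Smn1deltaSKM+AFS became 0 with quantile normalization, with normexp and quantile normalization, with probes on all arrays, with the slide as a block and with the replicate block. In these settings 841, 1193, 1054, 1442 and 1221 of all probes were called. It became 3 with the mouse as a random block (4448 of all probes) and 19 with fibers as independent replicates (9155). Without 1 Smn1deltaSKM mouse it was 0 to 11, beside 605 to 6501 of all probes. Between Smn1deltaSKM+AFS and Smn1deltaSKM, 0 members were called in every setting, and the median relative to all probes (-0.01) was -0.19 with the replicate block, -0.16 with the slide as a block, -0.12 with the scan day as a block, 0.11 within day 2, -0.74 within day 1 and -0.19 to 0.20 without 1 mouse. The deviations of mice with the same number correlated at -0.05 to 0.30. Mice with unlike numbers were not compared, so whether the numbers pair the mice was not tested. With the number as a replicate block 8 members were called between Smn1deltaSKM and WT, 2 higher and 6 lower, beside 3086 of all probes. *Ctsb*, uncalled throughout, turned to 0.23 with quantile normalization, 0.10 with normexp, 0.11 with median centring, 0.23 in the authors' table, 0.022 with the replicate block and 0.062 with the slide as a block, and was -0.30 to 0.022 without 1 mouse. Leaving out 1 mouse gave -0.26 to 0.58 for *Ctsl* (-0.20 without Smn1deltaSKM mouse 1) and -0.26 to 0.42 for *Tfe3* (-0.20 without the same mouse), both also uncalled. Causes were not tested. Dim probes limit *Atp6v1b1*, *Atp6v1h*, *Atp6v1e2* and *Atp6v1c1*, whose means use only the fibers above background.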
